A study of Homo sapiens with 9 samples.

Results

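The Yippee-like genes YPEL1 to YPEL5 were followed in Ramos, a line of B lymphoma cells from a Burkitt tumour without Epstein-Barr virus, after inhibition of the kinase GSK-3. The members were the 5 genes of the human count table whose Ensembl identifier carries a YPEL symbol, out of 60234 genes in all. The family was chosen by its readout, since its read counts had been seen to fall together over the 0 h, 3 h and 6 h groups, so its levels and fold changes are given as a description without a test. Cells received 3 µM CHIR99021, a small molecule inhibitor of GSK-3, for 3 h or 6 h, or were untreated (0 h). Each time had 3 biological replicates of the same line, numbered 1 to 3 at 0 h, 5 to 7 at 3 h and 9 to 11 at 6 h. No untreated culture was sampled at 3 h or 6 h, so the agent and the time in culture cannot be told apart.

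YPEL genes encode small zinc-binding proteins named after Yippee, a protein of Drosophila, and conserved across eukaryotes. They share a fold with cereblon and the Mis18 proteins of the centromere. YPEL1 to YPEL4 are close relatives, and YPEL5 is the distant one. Human YPEL3 is known as a growth-suppressing gene that p53 can induce, and human YPEL5 binds CTLH, a large ubiquitin ligase complex. GSK-3 phosphorylates proteins such as MYC in a way that leads to their breakdown, and the study was about stabilized MYC and cell death in lymphoma.

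The 5 coding sequences divide as the family tree does, which matters here because reads of near-identical genes can be misassigned. In GENCODE v29 the principal coding sequences were 360 bases long for YPEL1, YPEL2 and YPEL3, 384 for YPEL4 and 366 for YPEL5, stop codon included. Identity among YPEL1, YPEL2, YPEL3 and YPEL4 was between 75.6% (YPEL1 with YPEL4) and 80.6% (YPEL1 with YPEL2) of 360 aligned bases. YPEL5 shared 54.4% to 55.9% of 342 aligned bases with the others. The 60-base stretch with the most positions identical in all 5 genes is printed below from the coding strand, 5′ to 3′, with those 34 positions in capitals. It starts at coding base 234 in YPEL1, YPEL2 and YPEL3, at 258 in YPEL4 and at 216 in YPEL5.
YPEL1: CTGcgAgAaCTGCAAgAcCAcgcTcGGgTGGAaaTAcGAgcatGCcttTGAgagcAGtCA
YPEL2: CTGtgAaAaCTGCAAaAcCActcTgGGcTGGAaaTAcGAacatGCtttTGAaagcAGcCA
YPEL3: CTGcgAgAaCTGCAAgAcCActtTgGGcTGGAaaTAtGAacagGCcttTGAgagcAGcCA
YPEL4: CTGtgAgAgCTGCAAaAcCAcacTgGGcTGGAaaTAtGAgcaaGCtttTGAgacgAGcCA
YPEL5: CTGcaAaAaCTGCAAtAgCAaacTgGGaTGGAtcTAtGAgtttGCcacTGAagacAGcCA

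Over all annotated transcripts, the longest exact run shared by a pair was 27 bases, between YPEL1 and YPEL3, and it was 12 to 18 bases for the other pairs. The read length was not given in the sources used here. The processed pseudogenes YPEL5P1 and YPEL5P3 had no read in any library, and YPEL5P2 had 1 read in untreated replicate 2 and 0 in the other 8.

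Each library had 46359911 to 52880876 reads in genes, and 15847 genes passed the filter on low counts. Levels are in CPM, read counts divided by library size after TMM scaling, at which a count of 0 in a library allows up to 0.0516 to 0.0692 CPM, counting error only. Of the 6 B cell marker genes, 6 were above 1 CPM in every library, with sums of 2459 to 2493 CPM at 0 h, 2416 to 2520 at 3 h and 2516 to 2664 at 6 h. Markers of T and NK cells summed to at most 0.172 CPM, of myeloid cells to at most 0.185 CPM and of epithelial cells and fibroblasts to at most 0.0219 CPM. Among the markers with no read in any library were 2 of 5, 1 of 5 and 3 of 5 genes of these lists. Untreated replicate 3 stood apart, with a chi-square per degree of freedom of 29.9 and 26.7 against untreated replicates 1 and 2, while the other pairs of a group ran from 1.70 to 12.8.

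YPEL5 had the most reads of the YPEL genes at each time and fell in steps. It had 70.6, 68.6 and 73.7 CPM in untreated replicates 1 to 3, then 35.0, 34.4 and 35.6 CPM at 3 h and 13.6, 12.7 and 14.4 CPM at 6 h. The libraries of the 3 times did not overlap at either step, which 10.9% of all genes also showed. Treated libraries all below the untreated ones were seen for 35.4% of genes at 3 h and 35.5% at 6 h. The log2 fold change, on which -1 is a 2-fold fall, was -1.02 (SE 0.0541) at 3 h against 0 h, -2.39 (SE 0.0583) at 6 h against 0 h and -1.37 (SE 0.0583) at 6 h against 3 h. At 6 h, 19.1% of the untreated mean was left. In bulk RNA, fewer cells with the transcript and less transcript per cell cannot be told apart.

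YPEL3 had the lowest 6 h log2 fold change of the 4 YPEL genes with enough reads. It had 23.9, 23.8 and 27.4 CPM in untreated replicates 1 to 3, then 11.5, 9.55 and 11.0 CPM at 3 h and 2.47, 2.43 and 2.33 CPM at 6 h. Again no library of one time overlapped another time. The log2 fold change was -1.23 (SE 0.0809) at 3 h against 0 h and -3.38 (SE 0.0967) at 6 h against 0 h, a 10.4-fold fall that left 9.62% of the untreated mean. The later interval carried more of it, with a log2 fold change of -2.15 (SE 0.1) at 6 h against 3 h.

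YPEL1, a close relative of YPEL3, stayed near the course of YPEL5. It had 20.9, 19.4 and 18.7 CPM in untreated replicates 1 to 3, then 9.18, 8.14 and 9.54 CPM at 3 h and 4.17, 4.05 and 3.69 CPM at 6 h, with no overlap between times. The log2 fold change was -1.14 (SE 0.0775) at 3 h against 0 h, -2.31 (SE 0.0852) at 6 h against 0 h and -1.17 (SE 0.0886) at 6 h against 3 h. The earlier and the later interval thus had similar values for YPEL1. YPEL1 overlaps PPIL2, a gene on the other strand with a mean of 111 CPM at 0 h and 126 CPM at 6 h. Reads from a shared stretch cannot be told apart without a stated strand setting.

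YPEL2 differed from the other YPEL genes in time course. It had 5.51, 5.59 and 4.76 CPM in untreated replicates 1 to 3, then 0.772, 0.626 and 0.572 CPM at 3 h and 0.872, 0.657 and 0.577 CPM at 6 h. Every treated library lay below every untreated one, and the 3 h and 6 h libraries overlapped. The log2 fold change was -3.01 (SE 0.151) at 3 h against 0 h, an 8.05-fold fall, and -2.90 (SE 0.151) at 6 h against 0 h. Between 6 h and 3 h it was 0.11 (SE 0.209), and without 6 h replicate 9 it was -0.082. These treated values rest on 28 to 36 reads per library at 3 h and 25 to 41 at 6 h, against 257 to 325 at 0 h.

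YPEL4 was near the limit of detection. It had 3, 3 and 2 reads in untreated replicates 1 to 3, no read in the 3 libraries of 3 h, and 1, 0 and 0 reads at 6 h. Each library was at or under the level that a count of 0 allows, so no fold is given and the gene was not fitted. YPEL4 overlaps CLP1, an RNA kinase gene on the other strand, and the strand setting of the counting was not given in the sources used here.

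**Figure D1:**
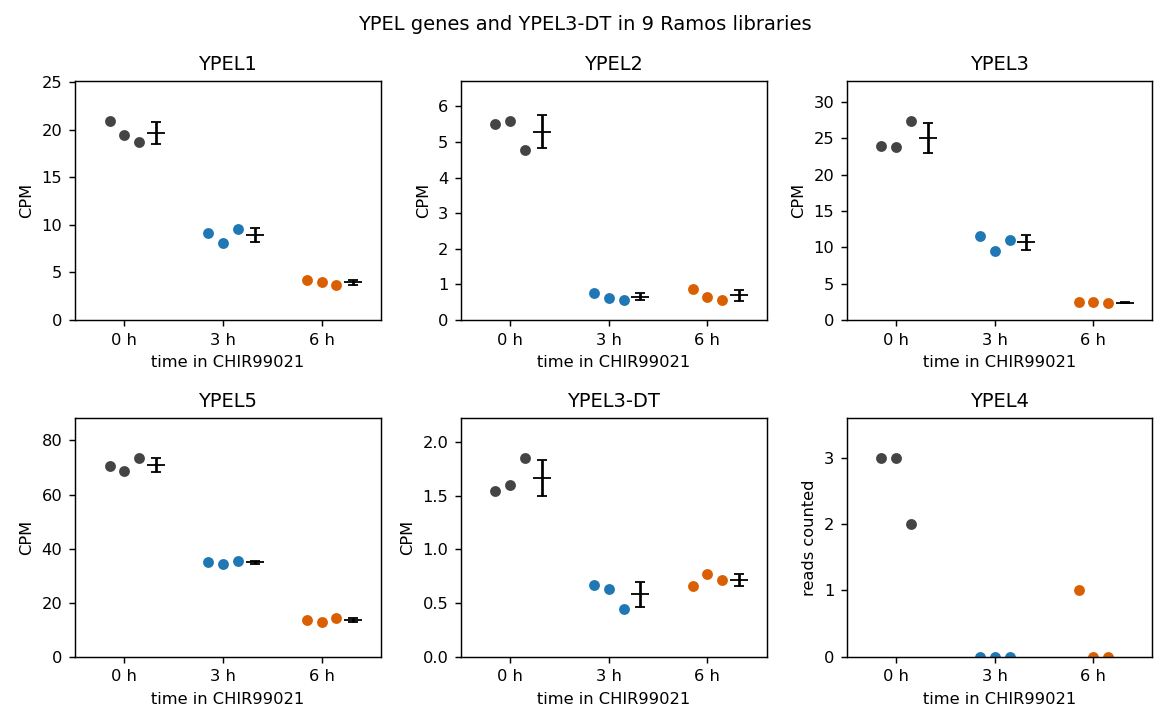
Level of each gene in the 9 libraries (points) by time in CHIR99021 with the mean and SD of 3 libraries (bar), in CPM, and in reads counted for YPEL4, which has no bar. YPEL1, YPEL3 and YPEL5 step down at both intervals, whereas YPEL2 and YPEL3-DT are low from 3 h and their 3 h and 6 h libraries overlap.

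The filter on low counts kept 4 of the 5 genes, and each of those 4 was lower at an edgeR adjusted p under 0.05 at 3 h and at 6 h against 0 h. Over all tested genes, 33.5% were called lower at 3 h and 35% at 6 h, and 66.3% and 70.8% were called in either direction. Of the genes called at 3 h and at 6 h, 49.5% and 50.5% were higher with TMM scaling, against 31.8% and 32.8% with scaling by library size alone. Between 6 h and 3 h, YPEL1, YPEL3 and YPEL5 were called lower and YPEL2 was not, beside 21.9% of all genes called lower and 43.4% called in either direction. Libraries that stepped down without overlap at both intervals, as for YPEL1, YPEL3 and YPEL5, were found for 10.9% of genes. Since these contrasts chose the family, nothing is read from these counts.

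The size of the changes places the genes within the whole table. The median log2 fold change of all genes was -0.01 at 3 h and 0.02 at 6 h, and a fall of 2-fold or more was seen for 10.7% and 13.1% of genes, and for 2.51% at 6 h against 3 h. At 3 h, 37 of 15847 genes had a lower log2 fold change than YPEL2, against 1149 for YPEL3, 1329 for YPEL1 and 1641 for YPEL5. At 6 h the order was different, with 60 genes below YPEL3, 130 below YPEL2, 272 below YPEL5 and 309 below YPEL1. Between 6 h and 3 h, 31 genes were below YPEL3 and 9818 below YPEL2.

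**Figure D2:**
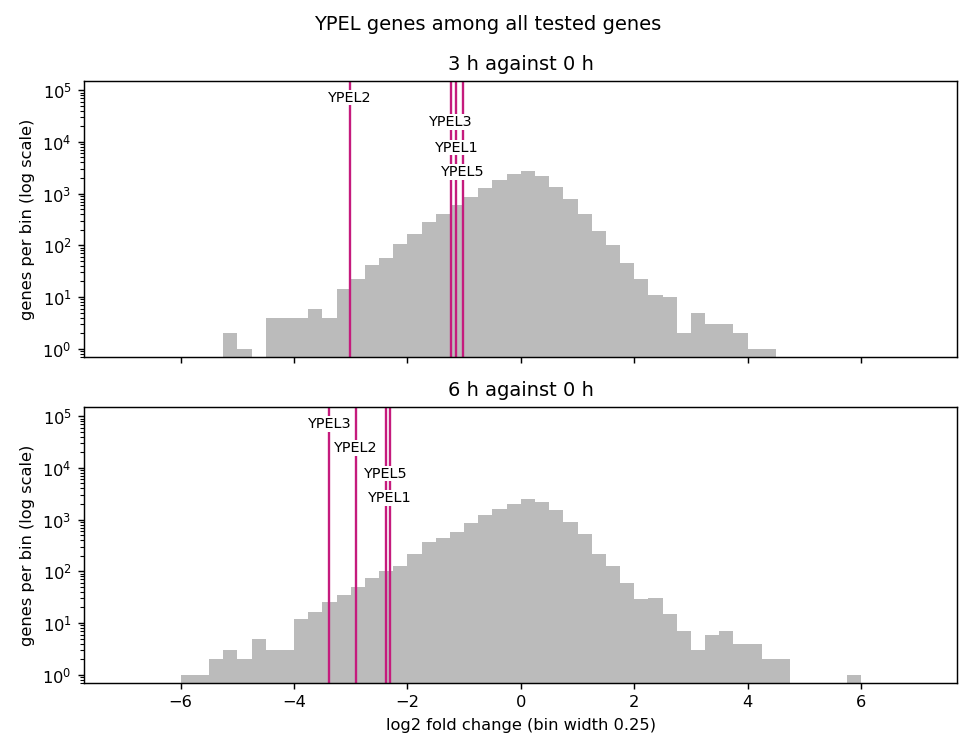
Number of tested genes per bin of log2 fold change (log scale) at 3 h against 0 h (top) and 6 h against 0 h (bottom), with the 4 fitted YPEL genes as labelled lines. At 3 h YPEL2 lies at -3.01 and the other 3 lie between -1.23 and -1.02, and at 6 h the 4 genes lie between -3.38 and -2.31.

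The share of the 6 h log2 change that was present at 3 h was largest for YPEL2, and no spread was computed for this share. It was 36.4% for YPEL3, 42.7% for YPEL5, 49.2% for YPEL1 and 104% for YPEL2. The root-mean-square distance between time courses, in log2 CPM over the 9 libraries with each gene set to its own 0 h mean, was 0.134 for YPEL1 with YPEL5. It was 0.579 for YPEL3 with YPEL5 and 0.620 for YPEL1 with YPEL3. YPEL2 was 1.05 to 1.16 away from each of the other 3. Thus YPEL1 lay nearest to YPEL5, the most distant relative in sequence, and YPEL1 and YPEL2, the most alike in coding sequence, lay 1.10 apart. These distances describe 3 times and were not tested.

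**Figure D3:**
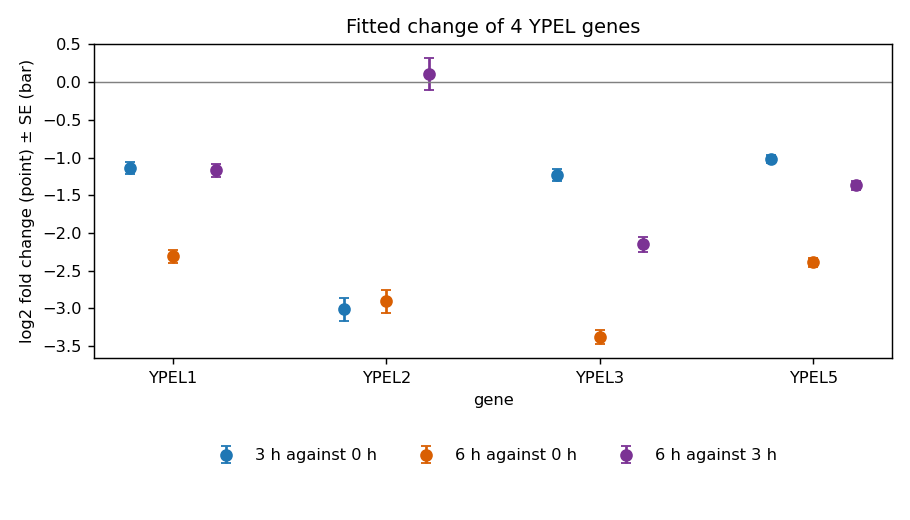
Log2 fold change (point) and its SE (bar) of the 4 fitted YPEL genes for 3 h against 0 h, 6 h against 0 h and 6 h against 3 h. YPEL3 has the lowest value at 6 h (-3.38), and for YPEL2 alone the value at 6 h against 3 h is smaller than its SE (0.11, SE 0.209).

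The family total and its makeup followed from these courses. The 5 genes together took 121 ± 3.54 CPM at 0 h, 55.3 ± 2.24 CPM at 3 h and 20.7 ± 0.720 CPM at 6 h (SD, n = 3 each), so 17.1% of the untreated total was left at 6 h. YPEL5 gave 58.6% ± 0.450 of the family reads at 0 h, 63.3% ± 1.70 at 3 h and 65.7% ± 2.50 at 6 h. YPEL3 gave 20.7% ± 1.18, 19.3% ± 1.14 and 11.7% ± 0.570 of them. YPEL2 gave 4.38% ± 0.490, 1.19% ± 0.179 and 3.39% ± 0.689.

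Shares of reads depend on transcript length, and so does the order of the genes. Per kilobase of the principal transcript of GENCODE v29, the untreated level was 27.7 ± 1.00 CPM for YPEL5, 26.8 ± 2.19 for YPEL3, 4.54 ± 0.264 for YPEL1 and 1.01 ± 0.0872 for YPEL2 (SD, n = 3). YPEL5 and YPEL3 did not differ beyond their spread on this scale. Per kilobase of all annotated exons, whose total is longer, the untreated means were 20.7 for YPEL5, 7.87 for YPEL3, 4.17 for YPEL1 and 0.610 for YPEL2. At 6 h the level per kilobase of principal transcript was 5.30 ± 0.328 for YPEL5, 2.58 ± 0.0760 for YPEL3, 0.917 ± 0.0575 for YPEL1 and 0.135 ± 0.0293 for YPEL2. Which transcripts Ramos cells use was not resolved by counts per gene, so the place of YPEL3 in this order depends on the length chosen.

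The start of each gene is shown because 3 of the falling genes can be compared there. RefSeq windows (GRCh38.p14) from 250 bases before to 50 bases after the annotated start were at hand for 4 of the 5 genes, and YPEL1 was not among them. The 3 windows of expressed genes follow, 5′ to 3′ on the strand of the gene. They are YPEL2 at chr17:59331405-59331704 (plus strand), YPEL3 at chr16:30096164-30096463 (minus strand) and YPEL5 at chr2:30146757-30147056 (plus strand). Capitals mark 3 motifs on either strand. They are the CCAAT box, the forkhead motif with the letters GTAAACA, and TGACG, which is part of the cAMP response element.
YPEL2: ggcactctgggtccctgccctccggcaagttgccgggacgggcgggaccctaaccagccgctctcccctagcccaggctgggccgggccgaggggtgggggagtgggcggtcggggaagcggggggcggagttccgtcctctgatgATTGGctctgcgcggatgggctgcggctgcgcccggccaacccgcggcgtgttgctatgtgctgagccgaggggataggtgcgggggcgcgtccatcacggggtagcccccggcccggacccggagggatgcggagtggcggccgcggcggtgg
YPEL3: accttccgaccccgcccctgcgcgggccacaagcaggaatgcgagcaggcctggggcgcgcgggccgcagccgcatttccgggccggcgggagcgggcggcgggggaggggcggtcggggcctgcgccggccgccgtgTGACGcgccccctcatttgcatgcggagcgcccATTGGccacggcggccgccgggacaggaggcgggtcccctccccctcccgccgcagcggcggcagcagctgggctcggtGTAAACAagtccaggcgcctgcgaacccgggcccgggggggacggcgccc
YPEL5: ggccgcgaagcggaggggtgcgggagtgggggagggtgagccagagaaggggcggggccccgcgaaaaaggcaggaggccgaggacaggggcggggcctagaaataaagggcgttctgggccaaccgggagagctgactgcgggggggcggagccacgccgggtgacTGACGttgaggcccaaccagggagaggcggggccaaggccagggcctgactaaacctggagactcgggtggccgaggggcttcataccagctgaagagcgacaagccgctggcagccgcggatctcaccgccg

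The 3 windows were GC-rich, with 75%, 79% and 70% G or C for YPEL2, YPEL3 and YPEL5, and each held 3 copies of the GC box GGGCGG, which 45% of the 35116 RefSeq windows hold at least once. A CCAAT box stood on the opposite strand in YPEL2 and YPEL3 and not in YPEL5, against 34.6% of all windows. TGACG was in the windows of YPEL3, YPEL4 and YPEL5 (24.6% of all windows). GTAAACA was in that of YPEL3 alone of the 4 (3.42% of all windows). CACGTG, the E-box that MYC is known to bind, was in none of the 4 windows and in 7.26% of all. Both strands were searched, and the marked motifs did not overlap each other. A match describes letters in the window and does not show that a factor binds there. The lack of a match does not show that no factor acts on the gene, and 4 windows are too few to set against the shares of all windows.

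YPEL3-DT (ENSG00000250616) is a noncoding gene that starts 217 bases from YPEL3 in RefSeq and runs the other way. It was not a member and was tested. It had 86, 93 and 100 reads in untreated replicates 1 to 3, then 31, 32 and 22 reads at 3 h and 31, 35 and 31 reads at 6 h. The treated libraries lay below the untreated ones, and the log2 value was -1.52 at 3 h (SE 0.176; edgeR, adjusted p = 3.56e-06) and -1.22 at 6 h (SE 0.172; edgeR, adjusted p = 2.09e-05), each against 0 h. Between 6 h and 3 h it did not pass (0.30, SE 0.207, edgeR adjusted p = 0.268), while YPEL3 went on falling. For every 100 reads of YPEL3, YPEL3-DT had 6.44 to 6.77 reads at 0 h, 4.08 to 6.56 at 3 h and 26.7 to 31.5 at 6 h. The genes overlap in GENCODE v29, so reads from their shared stretch cannot be told apart without a stated strand setting.

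Genes beside the YPEL genes were called in both directions. Of 9 protein-coding genes nearest to the members in GENCODE v29, 7 were tested, and 4 fell and 2 rose at 3 h and likewise at 6 h. Over all genes, 33.5% and 35% were called lower and 32.8% and 35.7% higher at these times. LBH, a transcription cofactor gene downstream of YPEL5, had 26.8, 28.2 and 22.9 CPM in untreated replicates 1 to 3, then 9.24, 8.11 and 9.19 CPM at 3 h and 5.89, 6.50 and 5.70 CPM at 6 h. Its log2 fold change was -1.55 (SE 0.0876, edgeR adjusted p = 2.54e-09) at 3 h against 0 h and -2.10 (SE 0.0917, edgeR adjusted p = 1.61e-10) at 6 h against 0 h.

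The YPEL3 locus had falls on both sides. TBX6, a T-box transcription factor gene downstream of YPEL3 on the same strand, had 2.06, 2.08 and 3.36 CPM in untreated replicates 1 to 3, then 0.450, 0.529 and 0.388 CPM at 3 h and 0.404, 0.219 and 0.185 CPM at 6 h. Its log2 fold change was -2.44 (SE 0.257, edgeR adjusted p = 1.71e-06) at 3 h against 0 h and -3.19 (SE 0.29, edgeR adjusted p = 3.15e-07) at 6 h against 0 h. The treated values of TBX6 rest on means of 22.3 and 12.3 reads per library at 3 h and 6 h, against 139 at 0 h. GDPD3, a lysophospholipase D gene on the other side of YPEL3, fell 2.41-fold at 3 h (edgeR adjusted p = 2.90e-05) and 1.94-fold at 6 h (edgeR adjusted p = 0.000264). GDPD1, its relative beside YPEL2, fell 2.19-fold at 3 h (edgeR adjusted p = 1.71e-06) and 1.34-fold at 6 h (edgeR adjusted p = 0.00413).

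Other neighbours did not fall. CLP1, which overlaps YPEL4, rose 1.94-fold at 3 h (edgeR adjusted p = 1.71e-08) and 1.62-fold at 6 h (edgeR adjusted p = 3.40e-07). PPIL2, a cyclophilin-type gene that overlaps YPEL1 on the other strand, passed with log2 fold changes of 0.11 and 0.18, which became -0.088 and -0.054 with scaling by library size alone and then did not pass. Its 3 h call was also lost when any 1 of the 0 h or 3 h libraries was left out (edgeR adjusted p = 0.0628 to 0.106). DHX40, a helicase gene beside YPEL2, had 0.08 and 0.13 and did not pass, with -0.12 and -0.11 with library size alone, and passed at 6 h without untreated replicate 1 (0.16, edgeR adjusted p = 0.0434). SERPING1 beside YPEL4 had no read at any time, and ALK beside YPEL5 had 1 read in all.

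Genes of the CTLH complex, which YPEL5 binds, were called in both directions. Of 10 subunit genes, 4 rose and 2 fell at 3 h, with a median log2 fold change of 0.19, and 5 rose and 4 fell at 6 h, with a median of 0.17. Over all genes 32.8% were called higher and 33.5% lower at 3 h, and 35.7% higher and 35% lower at 6 h. With scaling by library size alone 4 fell at 3 h, while only GID8, ARMC8 and MAEA rose. At 6 h 3 rose with that scaling. The lowest 6 h log2 value of a subunit gene was -0.38, that of RMND5A, beside -2.39 for YPEL5.

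MAEA, a RING subunit of the ligase, was the subunit gene with the highest log2 fold change at both times. It had 50.5, 50.9 and 53.9 CPM in untreated replicates 1 to 3, then 104, 108 and 109 CPM at 3 h and 111, 107 and 104 CPM at 6 h. Its log2 fold change was 1.05 at both times (SE 0.0497 and 0.0498, edgeR adjusted p = 5.10e-10 and 3.33e-10). RMND5A, its RING partner, had 175 ± 1.23 CPM at 6 h and 228 ± 22.1 CPM at 0 h (SD, n = 3 each), or -0.38 on the log2 scale (SE 0.0624; edgeR, adjusted p = 8.05e-05). RMND5B, a relative of RMND5A, fell 1.18-fold and 1.11-fold at 3 h and 6 h (edgeR adjusted p = 0.00027 and 0.00703), and its 6 h call was lost without the filter (edgeR adjusted p = 0.0561). At 3 h RMND5A had -0.14 on the log2 scale (edgeR adjusted p = 0.0702), and it passed at -0.34 with library size alone and at -0.22 without untreated replicate 3.

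Scaffold subunits moved little. ARMC8 rose 1.39-fold and 1.29-fold at 3 h and 6 h (edgeR adjusted p = 1.35e-06 and 1.36e-05). RANBP10 rose 1.23-fold and 1.35-fold (edgeR adjusted p = 0.000181 and 5.85e-06), and its 3 h call was lost with library size alone (log2 0.10, edgeR adjusted p = 0.106). GID8 rose 1.32-fold and 1.15-fold (edgeR adjusted p = 8.96e-06 and 0.00296), though its 6 h value was -0.038 on the log2 scale with library size alone. RANBP9 had 0.08 on the log2 scale at 3 h (SE 0.0473, edgeR adjusted p = 0.164), which was -0.12 with library size alone and then passed as lower (edgeR adjusted p = 0.0158), and fell 1.24-fold at 6 h (edgeR adjusted p = 5.23e-05). GID4, a substrate receptor, fell 1.26-fold and 1.25-fold (edgeR adjusted p = 0.0019 and 0.00245).

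The remaining subunit genes build higher assemblies of the ligase. WDR26 had a log2 fold change of 0.08 at 3 h (edgeR adjusted p = 0.211) and 0.17 at 6 h (edgeR adjusted p = 0.0143), which were -0.12 and -0.068 with library size alone. Its 6 h call was also lost without 6 h replicate 10 (edgeR adjusted p = 0.0508). MKLN1 had 77.4, 78.1 and 47.2 CPM in untreated replicates 1 to 3 and did not pass at 3 h or 6 h (edgeR adjusted p = 0.206 and 0.418). Its 6 h value of 0.18 became -0.025 without untreated replicate 3 and -0.050 with library size alone.

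Reported substrates of the complex are degraded as proteins, and their mRNAs went in different directions. HBP1, a transcriptional repressor, had 19.7 ± 0.416 CPM at 0 h, 10.9 ± 1.09 CPM at 3 h and 9.43 ± 0.926 CPM at 6 h (SD, n = 3 each). Its log2 fold change was -0.85 (SE 0.0834, edgeR adjusted p = 6.20e-07) at 3 h and -1.06 (SE 0.0848, edgeR adjusted p = 6.31e-08) at 6 h against 0 h. NMNAT1, an enzyme of NAD synthesis, had -0.19 on the log2 scale at 3 h (edgeR adjusted p = 0.109), which became -0.39 with library size alone and passed (edgeR adjusted p = 0.00452), and fell 1.32-fold at 6 h (edgeR adjusted p = 0.00271). ZMYND19 rose 1.35-fold and 1.33-fold (edgeR adjusted p = 2.58e-05 and 4.03e-05). HMGCS1, an enzyme of sterol synthesis, rose 3.15-fold and 1.58-fold (edgeR adjusted p = 5.01e-11 and 1.29e-07). No protein was measured here.

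Genes of the related fold had smaller values. CRBN, which encodes cereblon, a substrate receptor of another ubiquitin ligase, rose 1.39-fold at 3 h and 1.26-fold at 6 h (edgeR adjusted p = 3.11e-06 and 8.21e-05). The 6 h call of CRBN was lost with library size alone (edgeR adjusted p = 0.118). OIP5, a Mis18 protein, fell 1.27-fold at 3 h (edgeR adjusted p = 0.000341) and had a log2 fold change of 0.10 at 6 h (edgeR adjusted p = 0.168), which was -0.13 with library size alone and passed as higher without untreated replicate 3 (0.16, edgeR adjusted p = 0.0213). MIS18A, its partner at the centromere, did not pass at either time (edgeR adjusted p = 0.489 and 0.161), with log2 values of -0.05 and -0.10. With library size alone these were -0.25 and -0.33 and passed (edgeR adjusted p = 0.00193 and 0.000216).

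**Figure D4:**
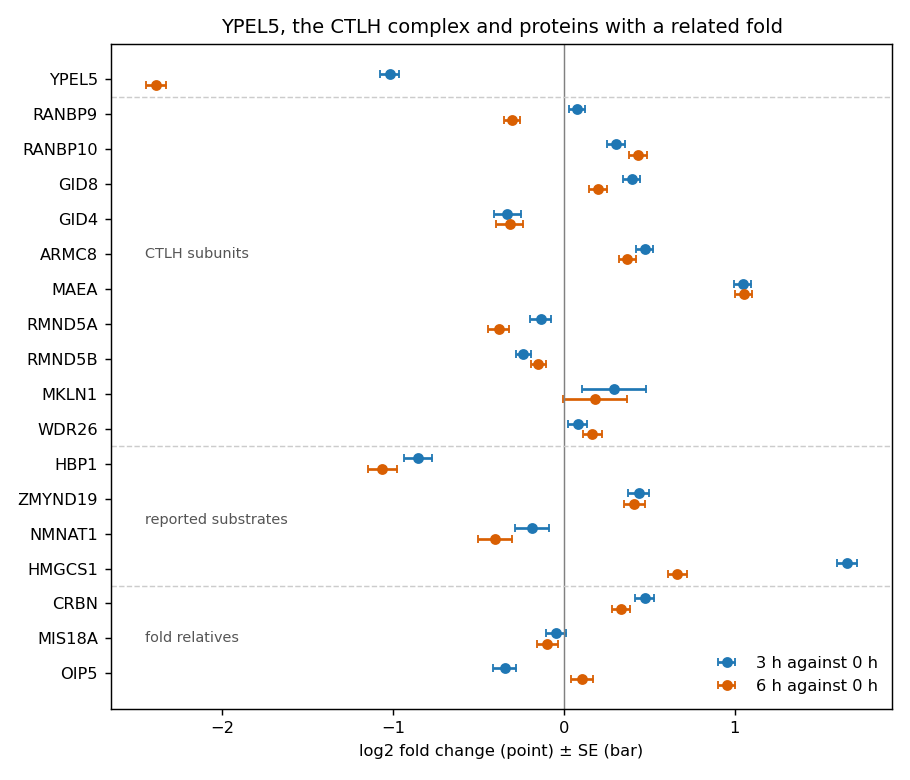
Log2 fold change (point) and SE (bar) at 3 h and 6 h against 0 h for YPEL5, 10 CTLH subunit genes, 4 reported substrates and 3 genes of the related fold. YPEL5 lies at -1.02 and -2.39, and of the other genes HBP1 has the lowest values, at -0.85 and -1.06.

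Known p53 targets were listed beside YPEL3. Of 20, 19 were tested, and 12 fell and 6 rose at 3 h, whereas 14 fell and 5 rose at 6 h. Over all genes, 33.5% and 35% were called lower and 32.8% and 35.7% higher. Their median log2 fold change was -0.30 and -0.71, against -0.01 and 0.02 for all genes. TP53INP1, a stress-induced regulator, fell 6.99-fold at 6 h (edgeR adjusted p = 8.21e-12), SESN2, a stress sensor, 2.96-fold (edgeR adjusted p = 1.52e-11) and BBC3, the BH3-only protein PUMA, 24.8-fold (edgeR adjusted p = 2.25e-10). BBC3 had a mean of 809 reads per library at 0 h and 26.3 at 6 h. CDKN1A, an inhibitor of cyclin-dependent kinases, rose 10.8-fold (edgeR adjusted p = 5.42e-12). YPEL3 had -3.38 on the log2 scale at 6 h.

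The genes closest to each YPEL gene in time course were sought among 11739 others with a symbol and a mean of at least 1 CPM, by the root-mean-square distance over the 9 libraries. For YPEL1 these were KCNH2, a potassium channel gene (0.0881), YPEL5 (0.134) and NSUN7 (0.136). For YPEL5 they were SLC17A7, a vesicular glutamate transporter gene (0.115), NSUN7 (0.121) and NFATC4, a transcription factor gene of the NFAT family (0.127). NFATC4 had 108 ± 4.87 CPM at 0 h, 57.9 ± 2.24 at 3 h and 21.1 ± 1.28 at 6 h (SD, n = 3 each).

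For YPEL3 the nearest genes were the collagen gene COL9A3 (0.169), the phosphatase gene PPM1M (0.173) and FURIN, which encodes a proprotein convertase (0.219). COL9A3 had 24.3 ± 2.99 CPM at 0 h, 8.69 ± 0.543 at 3 h and 2.14 ± 0.140 at 6 h. For YPEL2 they were FRAT1 (0.271), LINC02361 (0.300) and DICER1-AS1 (0.349), all farther away than those of the other YPEL genes. YPEL2 had a mean of 32 reads per library at 3 h and at 6 h, and LINC02361 had 15 and 16.7. Counting error enters these distances and was not separated from them. FRAT1 encodes a protein known to bind and inhibit GSK-3, and it had 21.8 ± 1.66 CPM at 0 h, 3.20 ± 0.0916 at 3 h and 3.70 ± 0.425 at 6 h. LINC02361 is a noncoding gene, and DICER1-AS1 is antisense to DICER1. These genes were chosen for their likeness, so their values carry no test.

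**Figure D5:**
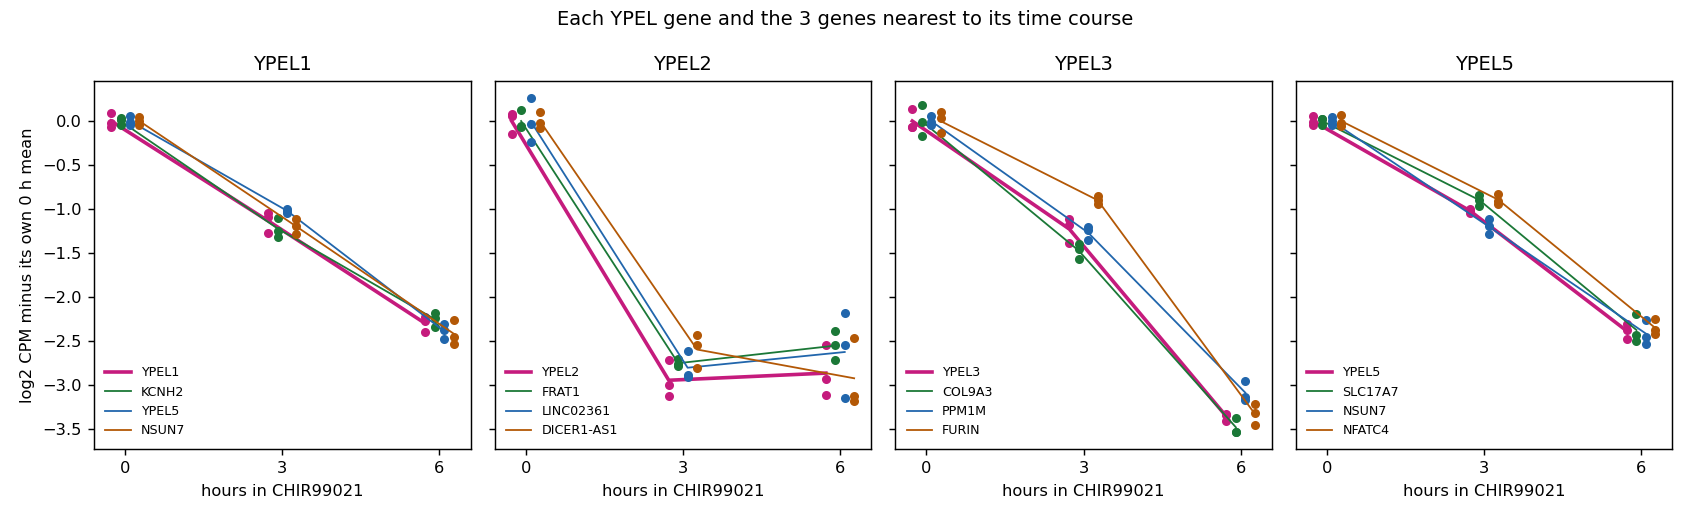
Log2 CPM of each gene minus its own 0 h mean (points: 9 libraries, lines: means, genes set slightly apart on the time axis) for each fitted YPEL gene and the 3 genes nearest to it. YPEL1, YPEL3 and YPEL5 and their nearest genes fall through 6 h, and YPEL2 and its nearest genes are low at 3 h and stay low.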

How the data were processed

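RNA sequencing of 9 Ramos libraries was analysed. The deposited values are raw counts of reads for each Ensembl gene. The submitters' processing notes name GSNAP, hg19, HTSeq 0.6.0 and limma 3.30.0. Strand setting, counting mode and annotation release are not given in the sources used here. The 5 HTSeq summary entries, 29.1% to 32.4% of reads, were set aside. Symbols were matched by identifier for 39539 genes.

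The test used edgeR 4.0.16 under R 4.3.3: filterByExpr (minimum count 10, minimum total 15), TMM factors (means 1.11, 0.962 and 0.940 at 0 h, 3 h and 6 h), and a robust quasi-likelihood fit with a mean per group over all 9 libraries. Tests were two-sided, with Benjamini-Hochberg adjustment over all tested genes and a threshold of 0.05. The SE is the size of the log2 fold change divided by the square root of F. Distances used log2 CPM with a prior count of 2. Named genes were the members, every tested gene of the CTLH and related-fold lists, up to 4 p53 targets with the smallest 6 h p, the nearest protein-coding gene on each side of each member (1 of them is not reported here), the 3 genes nearest in time course, and pseudogenes and antisense genes named after a member. Members and lists were chosen with earlier results of these data known. The labels call the libraries biological replicates, so p-values measure the spread between these cultures. Other settings were a DESeq2 1.42.0 test, voom from limma 3.58.1, 3 other scalings, no filter, the compared groups alone and leaving out each library. The fit was tested on simulated data with 200 changed genes and the same spread for every gene, which left the choice of scaling untested. In the data 66.3% and 70.8% of genes were called at 3 h and 6 h against 0 h. The simulation therefore does not give the error rate of these calls. Coding sequences were aligned with MAFFT 7.526. Figures used matplotlib 3.10.9 in Python 3.11.15.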

Additional observations from a re-analysis of the deposited data

How the results depend on the processing

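The log2 fold changes of YPEL1, YPEL3 and YPEL5 kept their sign in all 3 comparisons under the 16 alternatives, and so did YPEL2 against 0 h. These values chose the genes, so the ranges are a description and no sign of stability. At 6 h against 0 h they ranged from -2.54 to -2.26 for YPEL1, -3.14 to -2.78 for YPEL2, -3.61 to -3.31 for YPEL3 and -2.62 to -2.33 for YPEL5. The lowest of each came from library size alone, under which the median of all genes was -0.22 at 3 h and at 6 h. YPEL2 at 6 h against 3 h ranged from -0.082 (without 6 h replicate 9) to 0.23 when 1 library was left out, and passed in none of the 16.

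The counts of called genes stayed within 1.5 times of 10505, 11213 and 6871. Among other named genes and lists, 1867 of 1936 values stayed the same. For a gene this means the same direction and side of the threshold, and for the count of a list, within 1.5 times. With library size alone the log2 value changed sign at 3 h for RANBP9 (-0.12), WDR26 (-0.12), PPIL2 (-0.088) and DHX40 (-0.12), and at 6 h for GID8 (-0.038), MKLN1 (-0.050), WDR26 (-0.068), OIP5 (-0.13), PPIL2 (-0.054) and DHX40 (-0.11). Upper-quartile factors did so at 3 h for RANBP9 (-0.075), WDR26 (-0.072), PPIL2 (-0.038) and DHX40 (-0.075), and at 6 h for OIP5 (-0.044) and DHX40 (-0.021). Without untreated replicate 3 it changed sign for MIS18A at 3 h (0.0027, and -0.10 at the other end over all left-out libraries) and MKLN1 at 6 h (-0.025, to 0.29). The groups share no replicate numbers, and whether their cultures were matched is not given in the sources used here. The fit therefore used no pairing. Depth limits YPEL4 and, at 25 to 41 reads in each treated library, the later course of YPEL2. Other named genes were as thin, among them TBX6 (means of 22.3 and 12.3 reads at 3 h and 6 h) and LINC02361 (15 and 16.7). At 6 h FURIN had a mean of 15.3 reads, SLC17A7 of 22 and BBC3 of 26.3.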
